A study of Homo sapiens with 6 samples.

Results

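Death receptors of the TNF receptor superfamily, and the proteins that carry their signal inside the cell, are described here in the human breast cancer cell line MDA-MB-231 and in cells of that background called Pep2-E3. The set holds 9 genes chosen by name and found by their Ensembl identifiers: the TRAIL receptors TNFRSF10A, TNFRSF10B and TNFRSF10D, the receptors FAS and TNFRSF1A, the adaptor FADD, the protease CASP8, its inhibitor CFLAR and the kinase RIPK1. All 9 were found among the 30099 genes listed in each library. RNA sequencing was done on 3 libraries of MDA-MB-231, which the labels call the control, and 3 libraries of Pep2-E3, for which they give Pep-E3 as the genotype. What Pep-E3 stands for, and whether the cells are 1 clone, is not given in the sources used here. No treatment or time is given for either group. Whether replicates came from separate cultures is not stated, so every p-value below rests on the variation among these 6 libraries, and that variation may be purely technical.

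Death receptors are activated by ligands of the TNF family that bring receptor chains together at the cell surface. The death domains of the TRAIL and FAS receptors then recruit FADD, which brings caspase-8 molecules together so that they cleave and activate each other, and CFLAR (c-FLIP), a caspase-8 relative without protease activity, can take their place. The TNF receptor TNFRSF1A first recruits TRADD and RIPK1 at the membrane, where ubiquitin chains on RIPK1 lead to NF-kB activation and survival, and RIPK1 can later join FADD and caspase-8 in a complex in the cytosol that kills the cell. MDA-MB-231 is widely used as a breast cancer line that is sensitive to TRAIL.

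The libraries held 17154511 to 18206694 fragments each in the listed genes, as recovered from FPKM. Of 8 markers known to be abundant in this line all were tested, with VIM at 174 FPKM in MDA-MB-231 and 158 in Pep2-E3. FPKM are fragments per kilobase of exon, relative to all fragments that the library holds in the listed genes. Among them the keratins KRT8 and KRT18 (KRT18 at 27.7 and 39.7 FPKM) were higher and AXL (260 and 206 FPKM) was lower in Pep2-E3. Of 11 markers of luminal or epithelial cells, 6 were tested. The oestrogen receptor ESR1 and E-cadherin CDH1 had at most 14 and 7 fragments per library, and EPCAM, at 2.71 and 2.32 FPKM, did not pass. The claudins CLDN3, CLDN4 and CLDN7, which the claudin-low class of lines is named for lacking, were present and lower in Pep2-E3, as was ERBB3, with CLDN4 at 31.0 ± 1.23 FPKM in MDA-MB-231 and 19.3 ± 1.31 in Pep2-E3 (SD, n = 3). The luminal factor GATA3 was 2.48-fold higher in Pep2-E3. Of 5 leukocyte markers with values none reached the filter used for testing, and their summed level was 0.342 to 0.428 FPKM in MDA-MB-231 and 0.104 to 0.251 in Pep2-E3. Of 6 fibroblast and endothelial markers only COL1A1 reached it, and their sum was 1.29 to 1.45 FPKM and 1.17 to 1.37 FPKM. Pep2-E3 replicate 1 stood apart from the other libraries of its group. Its root mean square log2 difference from Pep2-E3 replicates 2 and 3 was 0.315 and 0.345, against 0.239 between these 2 and 0.223 to 0.234 within MDA-MB-231. Relative to the mean of Pep2-E3 replicates 2 and 3, its median log2 level was -0.35 for the 2357 genes under 40% GC and 0.11 for the 1908 genes at 60% GC and over.

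Across the 14235 genes with a mean of at least 0.5 FPKM, 4383 (30.8%) differed between the groups in limma's test on log2(FPKM + 1) with Benjamini-Hochberg adjusted p under 0.05. In Pep2-E3, 14.6% (2072) were higher and 16.2% (2311) were lower. Of the 9 death receptor genes, all of which were tested, RIPK1 and FADD were higher, TNFRSF10B was lower, and 6 did not pass. Called were thus 3 of 9 genes, against 30.8% of all tested genes. The count was 5 of 9, against 37.9%, with the log2 values adjusted for GC content and exon length (CASP8 and TNFRSF1A added), and 4 of 9, against 34.2%, without Pep2-E3 replicate 1 (CASP8 and TNFRSF1A added, FADD lost). The median log2 fold change of the 9 genes was -0.03, against -0.02 over all tested genes. The groups did not overlap in 6 of the 9 genes, against 48.8% of all tested genes. In bulk RNA, a change in the share of cells that carry a transcript and a change in transcript per cell cannot be told apart.

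**Figure D1:**
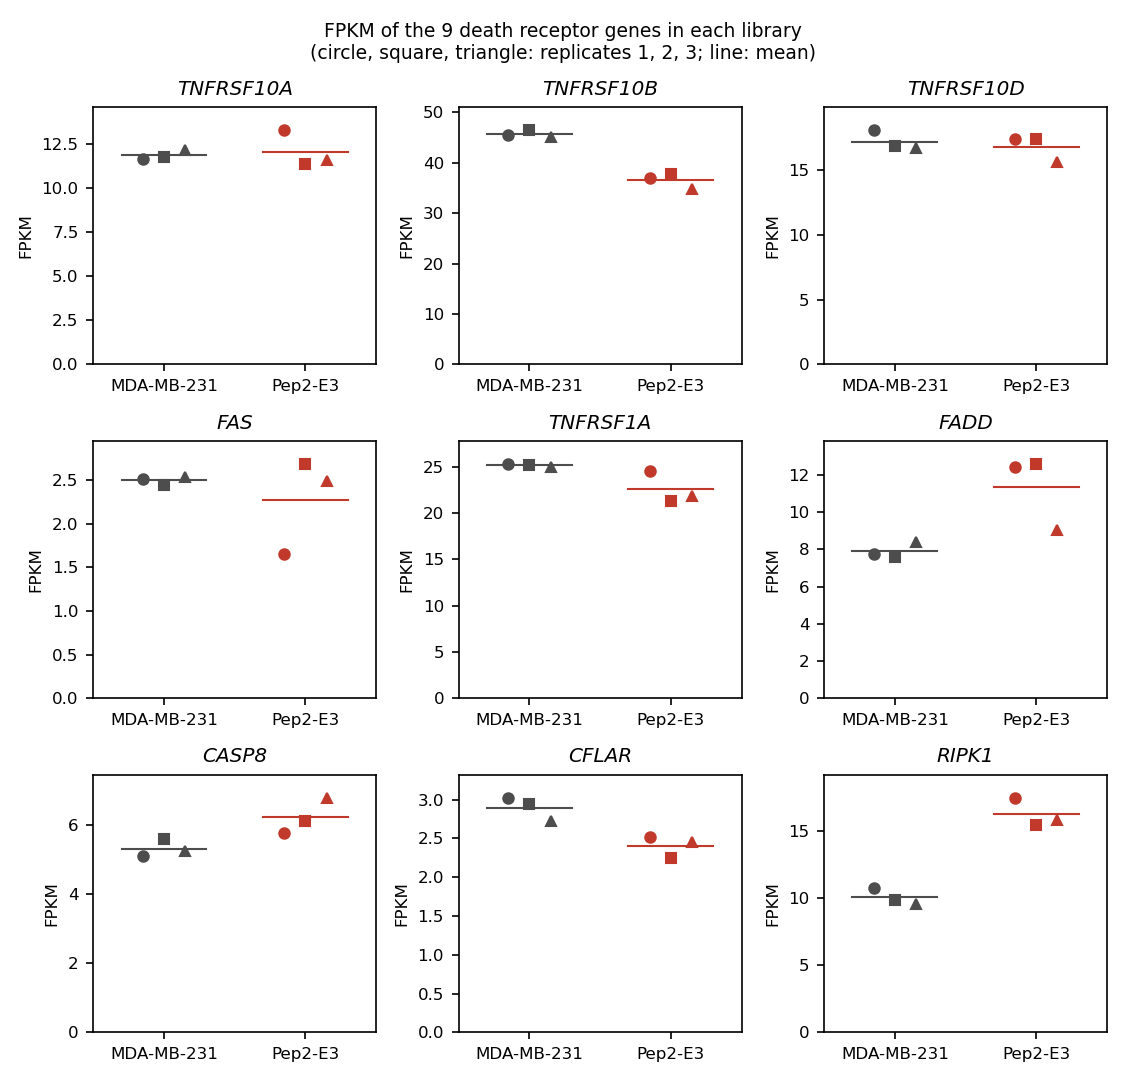
FPKM of each of the 9 genes in each library, with MDA-MB-231 in grey and Pep2-E3 in red, replicates 1, 2 and 3 as circle, square and triangle and the group mean as a line; every axis starts at 0. RIPK1 and FADD lie higher and TNFRSF10B lower in all 3 Pep2-E3 libraries, and FAS is set apart by the low value of Pep2-E3 replicate 1, at 1.66 FPKM.

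The promoters of both genes that were higher in Pep2-E3 are shown here because these genes moved in the same direction. The sequences are those of RefSeq (GRCh38.p14), each 300 bases long from 250 bases before to 50 after an annotated start, read 5′ to 3′ on the plus strand. FADD is shown at chr11:70203046-70203345 and RIPK1, at the first of its 3 windows, at chr6:3063717-3064016. Capitals mark the GC box, GGGCGG or its complement CCGCCC, which is the core of the site bound by SP family factors.
FADD: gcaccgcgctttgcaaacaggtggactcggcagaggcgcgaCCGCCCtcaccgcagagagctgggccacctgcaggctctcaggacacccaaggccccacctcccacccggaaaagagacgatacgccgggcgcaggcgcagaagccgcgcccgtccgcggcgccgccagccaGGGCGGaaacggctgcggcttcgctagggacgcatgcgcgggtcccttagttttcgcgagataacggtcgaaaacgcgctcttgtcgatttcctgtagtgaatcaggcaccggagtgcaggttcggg
RIPK1: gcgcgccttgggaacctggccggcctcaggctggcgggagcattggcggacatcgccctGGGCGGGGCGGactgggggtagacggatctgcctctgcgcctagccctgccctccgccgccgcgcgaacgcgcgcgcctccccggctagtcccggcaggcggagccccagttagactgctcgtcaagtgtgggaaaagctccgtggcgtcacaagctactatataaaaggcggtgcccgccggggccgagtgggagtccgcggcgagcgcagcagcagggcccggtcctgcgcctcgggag
The FADD window held 2 GC boxes, CCGCCC in its upstream part and GGGCGG nearer the start. Close to its 3′ end it held TGAATCA, a match to the loose AP-1 pattern searched here (TGANTCA, with any base at N). In the RIPK1 window 2 GGGCGG matches overlapped in GGGCGGGGCGG, and there was also a CCAAT motif (as ATTGG) and a TATAAA motif. The other RIPK1 windows, at chr6:3068128-3068427 and chr6:3068244-3068543, overlap each other and held 1 and 2 GC boxes and the same match to the interferon response core (GAAANNGAA). Searched on both strands, the GC box was in 45.0% of all 35116 promoters of this length, CCAAT in 34.6%, TATAAA in 11.5%, the interferon response core in 8.11% and the loose AP-1 pattern in 7.71%. An NF-kB motif, present in 11.3% of promoters, had no match in these windows of FADD and RIPK1, while 1 CFLAR window (chr2:201118466-201118765) and 1 FAS window (chr10:88991181-88991480) each held 1. No promoter window was matched by symbol to TNFRSF10A, TNFRSF10B or TNFRSF10D, so these genes were not searched. The GC content of the windows shown was 66.7% for FADD and 72% for RIPK1, against a median of 58.7% over all promoters. These matches describe letters in a window and are not evidence of a bound factor.

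TNFRSF10B (DR5, ENSG00000120889) is a TRAIL receptor with a full death domain and was the most abundant of the 9 genes. It lies on chromosome 8, 23020133 to 23069179 on the minus strand (GRCh38, GENCODE release 29, as for all genes here). In order of replicate number, as for every gene here, its level was 45.5, 46.4 and 45.1 FPKM in the MDA-MB-231 libraries and 37.0, 37.7 and 34.8 FPKM in those of Pep2-E3. Every Pep2-E3 library was below every parental library, and replicate 1, which stood apart over all genes, did not stand apart here. The mean fell from 45.7 ± 0.660 FPKM in MDA-MB-231 to 36.5 ± 1.53 in Pep2-E3 (SD, n = 3), 20.1% lower. The log2 fold change was -0.32 ± 0.05 (SE), with adjusted p = 0.00421 in limma's test. The value rested on 3077 to 4359 fragments per library, and the gene was called lower in each of the 15 alternative settings, with adjusted p from 0.00119 to 0.0253.

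TNFRSF10A (DR4, ENSG00000104689; chromosome 8, 23190452 to 23225126, minus strand) is the other TRAIL receptor with a death domain. It was at 11.6, 11.8 and 12.1 FPKM in the MDA-MB-231 libraries and at 13.2, 11.3 and 11.6 FPKM in the Pep2-E3 libraries. The groups overlapped, with Pep2-E3 replicate 1 highest of all and the other 2 Pep2-E3 libraries below the parental ones. Its log2 fold change was 0.02, with a 95% interval of -0.14 to 0.18 and adjusted p = 0.842 in limma's test, so a difference of the size seen in TNFRSF10B lies outside the interval. Of its exon bases 16.6% overlap genes on the opposite strand, and the library kit does not mark strand, so reads of these cannot be told apart from its own. Of these partners, AC100861.1 fell (log2 fold change -0.50 ± 0.10, adjusted p = 0.0128 in limma's test) and TNFRSF10A-AS1 did not pass (adjusted p = 0.609), both at under 3 FPKM in every library.

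TNFRSF10D (DcR2, ENSG00000173530; chromosome 8, 23135588 to 23164030, minus strand) encodes a decoy that binds TRAIL with a truncated death domain. Its libraries read 18.1, 16.8 and 16.7 FPKM in MDA-MB-231 and 17.4, 17.4 and 15.6 FPKM in Pep2-E3. These groups overlapped and the log2 fold change was -0.03 (95% interval -0.18 to 0.12, adjusted p = 0.724 in limma's test). The ratio of the decoy to the sum of both TRAIL receptors with a death domain was 0.316, 0.289 and 0.292 in MDA-MB-231 and 0.346, 0.355 and 0.337 in Pep2-E3. All 3 Pep2-E3 ratios were above the parental ones. The ratio of TNFRSF10B to TNFRSF10A was 3.91, 3.95 and 3.72 in MDA-MB-231 and 2.79, 3.32 and 3.01 in Pep2-E3, again without overlap. No test was made of these ratios. Both contain TNFRSF10B, the only 1 of these 3 genes that passed, so they are not separate from its fall. The second decoy, TNFRSF10C, had 1 to 5 fragments per library, and the soluble TRAIL-binding decoy TNFRSF11B (osteoprotegerin) had 13 to 22, so neither reached the filter.

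FAS (CD95, ENSG00000026103; chromosome 10, 88990582 to 89015785, plus strand), the receptor of FAS ligand, was the least abundant of the 9 genes, with 121 to 197 fragments per library. It was at 2.51, 2.44 and 2.53 FPKM in MDA-MB-231 and at 1.66, 2.68 and 2.49 FPKM in Pep2-E3. Pep2-E3 replicate 1 was below all other libraries, while replicate 2 was above them. The log2 fold change was -0.11 (95% interval -0.41 to 0.19, adjusted p = 0.552 in limma's test), and 0.04 without Pep2-E3 replicate 1 (adjusted p = 0.705). The longest FAS transcript has 39.1% GC, within the class of genes that were low in that library, and FAS was at -0.43 on the log2(FPKM + 1) scale there relative to the mean of replicates 2 and 3. With the adjustment for GC content and exon length the log2 fold change of FAS was -0.03 (adjusted p = 0.795 in limma's test).

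TNFRSF1A (TNFR1, ENSG00000067182; chromosome 12, 6328757 to 6342114, minus strand), the death receptor for TNF, was the second most abundant gene of the set. In MDA-MB-231 it was at 25.3, 25.2 and 24.9 FPKM and in Pep2-E3 at 24.5, 21.3 and 21.9 FPKM. All Pep2-E3 libraries lay below the parental ones, replicate 1 by little. The log2 fold change of -0.15 ± 0.06 (95% interval -0.30 to -0.01) did not pass, with adjusted p = 0.104 in limma's test. Without Pep2-E3 replicate 1 it was -0.21 and passed (adjusted p = 0.00869), and with the log2 values of every library adjusted for GC content and for exon length it was -0.20 and passed (adjusted p = 0.0137). These 2 settings call more genes in all, 34.2% and 37.9% of those tested.

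RIPK1 (ENSG00000137275; chromosome 6, 3063991 to 3115187, plus strand), the kinase and scaffold that TNFRSF1A recruits, had the largest change of the set. It was at 10.8, 9.88 and 9.54 FPKM in the MDA-MB-231 libraries and at 17.4, 15.5 and 15.8 FPKM in those of Pep2-E3. The lowest Pep2-E3 value was thus well above the highest parental value. The mean rose 1.61-fold, from 10.1 ± 0.646 to 16.2 ± 1.05 FPKM (SD, n = 3). In limma's test the log2 fold change was 0.64 ± 0.07 (SE), with adjusted p = 0.00147, and the gene was called higher in each of the 15 alternative settings (log2 fold change 0.49 to 0.69). Among all tested genes RIPK1 moved from the level percentile 67.2 in MDA-MB-231 to 79.2 in Pep2-E3. The ratio of RIPK1 to TNFRSF1A was 0.427, 0.392 and 0.383 in the parental libraries and 0.711, 0.726 and 0.724 in the Pep2-E3 libraries. It was the most even of the ratios within Pep2-E3, with an SD of 0.00824 around 0.720.

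FADD (ENSG00000168040; chromosome 11, 70203163 to 70207390, plus strand), the adaptor between death receptor and caspase-8, was higher in Pep2-E3 but unevenly so. Its level was 7.78, 7.61 and 8.39 FPKM in MDA-MB-231 and 12.4, 12.6 and 9.06 FPKM in Pep2-E3. Pep2-E3 replicates 1 and 2 were close to each other, and replicate 3 lay only just above the highest parental library. The mean was 1.43-fold higher, 11.3 ± 1.98 against 7.93 ± 0.413 FPKM (SD, n = 3), with a log2 fold change of 0.46 ± 0.12 (SE) and adjusted p = 0.0296 in limma's test. The call held in 8 of 15 alternative settings. It was lost when any of the MDA-MB-231 libraries was left out (adjusted p = 0.0885, 0.0985 and 0.0629 without replicates 1, 2 and 3), without Pep2-E3 replicate 1 (0.0524) and without replicate 2 (0.0911), while without replicate 3 the log2 fold change was 0.60 (adjusted p = 0.00376). FADD is a short gene read by 255 to 400 fragments per library. Of its exon bases 54.9% overlap AP000879.1 on the opposite strand, a gene not analysed here, and without strand the reads of both cannot be told apart.

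CASP8 (caspase-8, ENSG00000064012) and CFLAR (ENSG00000003402) are neighbours on the plus strand of chromosome 2, CFLAR at 201116104 to 201176687 and CASP8 at 201233443 to 201287711. CASP8 was at 5.09, 5.58 and 5.25 FPKM in MDA-MB-231 and at 5.78, 6.12 and 6.77 FPKM in Pep2-E3. CFLAR was at 3.02, 2.95 and 2.72 FPKM in MDA-MB-231 and at 2.52, 2.25 and 2.46 FPKM in Pep2-E3. In neither gene did the groups overlap, the protease lying higher and its inhibitor lower in Pep2-E3, but neither passed. For CASP8 the log2 fold change was 0.19 ± 0.07 (95% interval 0.03 to 0.36, adjusted p = 0.0792 in limma's test), and it passed without Pep2-E3 replicate 1 (0.24, adjusted p = 0.0333) and with the GC and length correction (0.28, adjusted p = 0.00593). For CFLAR it was -0.19 ± 0.07 (95% interval -0.36 to -0.03, adjusted p = 0.0731 in limma's test). CFLAR passed with limma-voom on the fragments recovered from FPKM (-0.27, adjusted p = 0.0196), and its value shrank to -0.08 (adjusted p = 0.285) with the GC and length correction.

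Set against each other within a library, CFLAR and CASP8 gave ratios of 0.592, 0.529 and 0.519 in MDA-MB-231 and 0.436, 0.367 and 0.363 in Pep2-E3. Replicate 1 was the highest in each group, and the groups did not overlap. The mean ratio was 0.546 ± 0.0399 in MDA-MB-231 and 0.389 ± 0.0408 in Pep2-E3 (SD, n = 3, no test). FPKM divides by all annotated exon bases, which are 22529 for CFLAR, whose longest transcript has 14672, and 7243 for CASP8, whose longest has 2930, so the size of the ratio depends on which transcripts are present. Counted in fragments and not per length, the ratio was 1.70 and 1.21. Of the CFLAR exon bases, 10.05% overlap IMPDH1P10 and CFLAR-AS1 on the opposite strand, which had at most 17 fragments in any library, and 1.975% overlap AC007283.1 on the same strand, which is not analysed here. The ratio of FADD to CASP8 was 1.53, 1.36 and 1.60 in MDA-MB-231 and 2.15, 2.05 and 1.34 in Pep2-E3. These groups overlapped, since Pep2-E3 replicate 3 was the lowest of all 6 libraries.

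**Figure D2:**
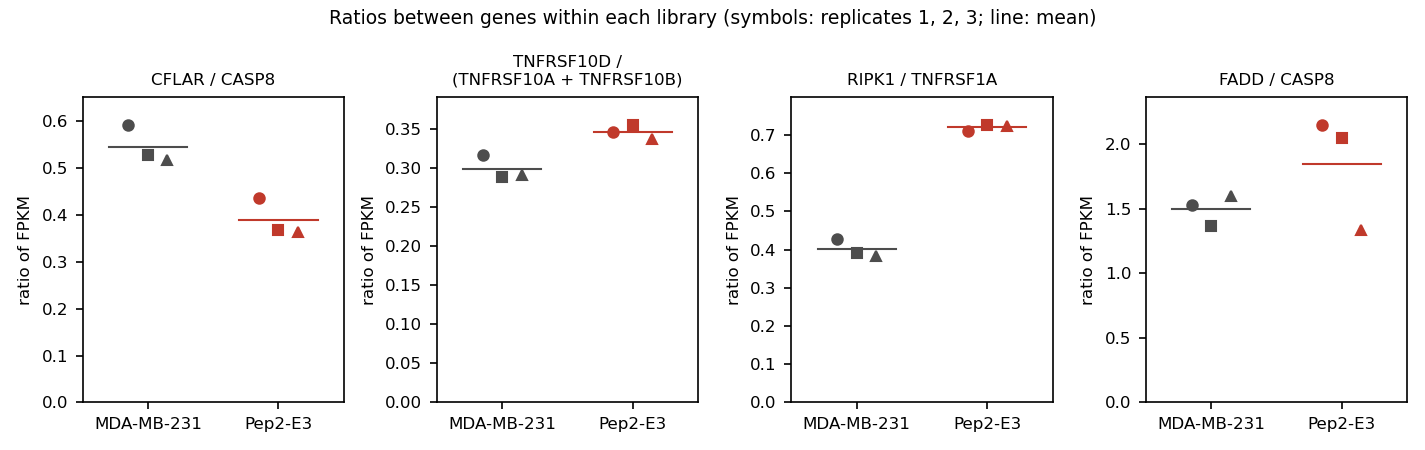
Ratios of FPKM between genes within each library, with MDA-MB-231 in grey and Pep2-E3 in red, replicates 1, 2 and 3 as circle, square and triangle and the mean as a line; axes start at 0. CFLAR to CASP8 lies lower, and TNFRSF10D to the sum of TNFRSF10A and TNFRSF10B and RIPK1 to TNFRSF1A lie higher, in all Pep2-E3 libraries, while FADD to CASP8 overlaps between the groups.

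**Figure D3:**
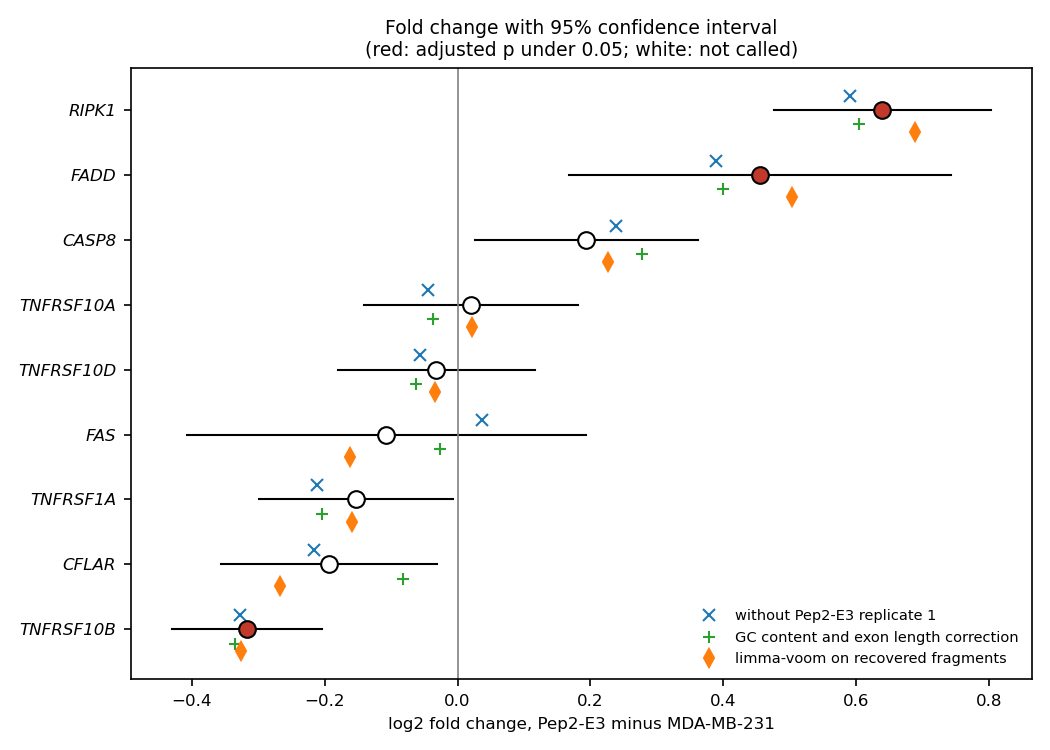
Log2 fold change (Pep2-E3 minus MDA-MB-231, on the log2(FPKM + 1) scale) of each gene with its 95% confidence interval; red circles passed and white ones did not, and crosses, plus signs and diamonds give the value without Pep2-E3 replicate 1, with the GC and length correction and with limma-voom. RIPK1 (0.64), FADD (0.46) and TNFRSF10B (-0.32) passed, and for FAS and TNFRSF10A the alternatives fall on both sides of 0.

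Ordered by level, MDA-MB-231 held TNFRSF10B, TNFRSF1A, TNFRSF10D, TNFRSF10A, RIPK1, FADD, CASP8, CFLAR and FAS, and no neighbours in this order overlapped across its 3 libraries. In Pep2-E3 RIPK1 passed TNFRSF10A to the place after TNFRSF10D, and the rest of the order was kept. There the ranges overlapped between TNFRSF10D and RIPK1, between TNFRSF10A and FADD, and between CFLAR and FAS. In both groups TNFRSF10A, TNFRSF10B, TNFRSF10D and TNFRSF1A were thus more abundant than CASP8 and CFLAR per length of all annotated exons. That length is 7243 bases for CASP8, whose longest transcript has 2930, and 2951 for TNFRSF10A, whose longest has 2714. The order of such genes therefore depends on which transcripts are present. Counted in fragments, CFLAR and CASP8 had means of 1173 and 691 in MDA-MB-231 and 933 and 775 in Pep2-E3. Both were above TNFRSF10A, at 628 and 612. TNFRSF10B stood at the level percentile 93.9 of tested genes in MDA-MB-231 and 91.6 in Pep2-E3, and FAS at 32.6 and 31.9.

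The profile over the 6 libraries nearest to that of TNFRSF10B, by the root mean square difference of centred log2(FPKM + 1) among 7177 genes with a mean of at least 5 FPKM, was that of CCNL2 (0.0193), followed by POMT1 (0.0215) and NPRL2 (0.0226). For RIPK1 the nearest were F2RL1 (0.0398), CREB3L1 (0.0447) and FBXL18 (0.0452). F2RL1, a protease-activated receptor, was at 59.9 FPKM in MDA-MB-231 and 92.0 in Pep2-E3. For FADD the nearest were FKBPL (0.0556), BRMS1 (0.0664) and PRKAR1B (0.0672), at a larger distance than for the other 2 genes.

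To place the changes on the chromosomes, each gene was set beside the 10 nearest tested genes on each side. The neighbours' median log2 fold change was between -0.07 and 0.05 for all 9 genes. RIPK1 and FADD were above all 20 of their neighbours, and 18 of the 20 neighbours of TNFRSF10B were above it. The 3 TRAIL receptor genes lie close together and share most of their neighbours, as do CASP8 and CFLAR.

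**Figure D4:**
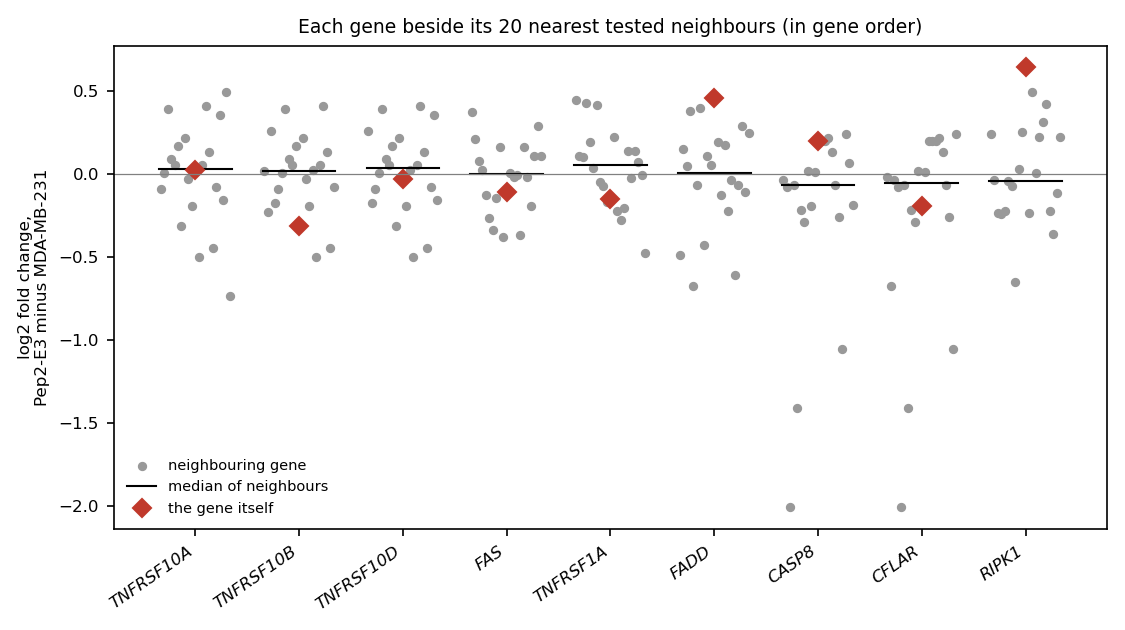
Log2 fold change of each of the 9 genes (red diamonds) beside its 20 nearest tested neighbours (grey dots, in gene order from left to right) and their median (line). RIPK1 and FADD lie above every neighbour, and the medians stay between -0.07 and 0.05.

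Around the 9 genes, 117 tested genes of 11 lists chosen by name for their role in the pathway were read the same way. Of these 23 were higher and 19 lower in Pep2-E3, together 35.9%, against 30.8% of all tested genes. By list, the share called ran from 18.2% of the kinases downstream of RIPK1 to 80% of the other receptors. Genes were named by a rule on the smallest p-values in each list, and a few others, marked as such, were named after their values were seen.

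Of 8 ligands only 2 reached the filter. TNFSF10, which encodes TRAIL itself, was at 1.82, 1.38 and 1.28 FPKM in MDA-MB-231 and at 0.587, 0.849 and 0.789 FPKM in Pep2-E3. Its groups did not overlap, and with 35 to 115 fragments per library its mean FPKM was 2.01-fold lower in Pep2-E3. On the log2(FPKM + 1) scale, which understates low genes, TNFSF10 fell by 0.51 ± 0.11 (adjusted p = 0.0163 in limma's test). FASLG had at most 1 fragment and TNF at most 2 fragments in any library. Of the 5 other receptors tested, 2 rose and 2 fell. TNFRSF12A (the TWEAK receptor FN14) rose from 95.6 ± 2.49 to 122 ± 8.20 FPKM (SD, n = 3; adjusted p = 0.00701 in limma's test) and LTBR (the lymphotoxin receptor) rose 1.18-fold. TNFRSF1B (TNFR2) is the TNF receptor without a death domain. It was at 2.00, 1.97 and 2.68 FPKM in MDA-MB-231 and at 1.27, 1.06 and 0.929 FPKM in Pep2-E3. The mean of TNFRSF1B was 2.04-fold lower, a fall by 0.62 ± 0.11 on the log2(FPKM + 1) scale (adjusted p = 0.00850 in limma's test). TNFRSF25 (DR3), another receptor with a death domain, fell from 0.736 to 0.330 FPKM. TNFRSF12A and TNFRSF1B kept their calls in every alternative. The calls of TNFSF10, LTBR and TNFRSF25 held in 5, 2 and 2 of the 6 fits with 1 library left out. The highest adjusted p in limma's test (0.0512, 0.0877 and 0.0706) was in each case without MDA-MB-231 replicate 1.

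Among 19 adaptors and ubiquitin regulators of the receptor complexes, 3 rose and 5 fell, with a median log2 fold change of -0.06. TRAF1, an adaptor of TNFR2, rose 1.58-fold (0.58 ± 0.07, adjusted p = 0.00165 in limma's test). The ubiquitin-editing TNFAIP3 (A20) and its partner TNIP1, which restrain RIPK1 and NF-kB signalling, rose (log2 fold changes 0.23 and 0.25). CYLD, a deubiquitinase that removes chains from RIPK1, fell 1.51-fold (-0.46 ± 0.08, adjusted p = 0.00614 in limma's test). CRADD, an adaptor that links RIPK1 to caspase-2, fell 1.99-fold, and SHARPIN, a subunit of the linear ubiquitin ligase, fell 1.23-fold. The other 2 that fell, named after their values were seen, were the deubiquitinases USP4 and OTULIN. TRAF1, CYLD and CRADD kept their calls in every alternative. TNFAIP3, TNIP1 and SHARPIN kept theirs in only 1, 3 and 1 of the 6 fits with 1 library left out. Their highest adjusted p in limma's test was 0.127, 0.0802 and 0.0801, without MDA-MB-231 replicates 1, 2 and 3. TRADD and TRAF2, the first partners of TNFRSF1A, did not pass, at 10.1 and 9.63 FPKM and at 20.7 and 22.0 FPKM in MDA-MB-231 and Pep2-E3.

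BIRC2 and BIRC3 (cIAP1 and cIAP2), the ligases that ubiquitinate RIPK1, were both lowest in Pep2-E3 replicate 1. BIRC3 was at 33.3, 35.1 and 32.3 FPKM in MDA-MB-231 and at 15.2, 27.1 and 29.1 FPKM in Pep2-E3. All Pep2-E3 libraries were below the parental ones, replicate 1 by far the most, and the log2 fold change of -0.53 did not pass (adjusted p = 0.114 in limma's test) but passed at -0.25 without that library (adjusted p = 0.0147). BIRC2 was between 52.2 and 53.8 FPKM in the MDA-MB-231 libraries and at 28.7, 51.6 and 50.8 FPKM in Pep2-E3, and did not pass (adjusted p = 0.291 in limma's test). XIAP, an inhibitor of caspases, did not pass at a mean of 3.66 and 3.79 FPKM, and passed as higher without that library (log2 fold change 0.20, adjusted p = 0.0488). The BIRC3 transcript has 34.8% GC, and with the adjustment for GC content and exon length BIRC3 passed as lower, at -0.33 (adjusted p = 0.0270 in limma's test).

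Of 11 kinases and partners downstream of RIPK1, 2 fell and none rose past the threshold: IKBKB, the catalytic subunit that activates NF-kB (-0.31 ± 0.06, adjusted p = 0.00832 in limma's test), and MAP3K5 (ASK1), a stress kinase (-0.29 ± 0.07). These calls are 18.2% of that list, against 30.8% of all tested genes. IKBKB kept its call in every alternative. MAP3K5 kept its call in only 2 of the 6 fits with 1 library left out (adjusted p up to 0.0726 in limma's test, without MDA-MB-231 replicate 3). Of 14 caspases and mitochondrial genes, the pore-forming BAX and BAK1 rose 1.22-fold and 1.19-fold, and APAF1, the scaffold of the apoptosome, fell 1.26-fold. Called were thus 21.4% of these 14 genes, also below the share of all tested genes. The call of BAX was lost in 1 alternative (adjusted p = 0.0554 without MDA-MB-231 replicate 1), while BAK1 and APAF1 lost theirs in most fits with 1 library left out (up to 0.149 and 0.115, both without MDA-MB-231 replicate 1). CASP10, a relative of caspase-8, and BID, which caspase-8 cleaves, did not pass.

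Of 7 tested necroptosis genes CHMP4B, a membrane repair subunit, rose and PELI1, a ubiquitin ligase acting on RIPK1 and RIPK3, fell 1.65-fold. PELI1 kept its call in every alternative and CHMP4B did not (adjusted p up to 0.0991, without MDA-MB-231 replicate 2). RIPK3, the kinase that RIPK1 needs for necroptosis, had 0 to 5 fragments per library and was not tested, and MLKL, its substrate, was at 6.05 ± 0.218 FPKM in MDA-MB-231 and 5.30 ± 0.457 in Pep2-E3 (SD, n = 3) and did not pass. Of 15 genes that modify or hold the receptors, 3 rose and 1 fell: LGALS3 (galectin-3) rose 1.31-fold, the FAS inhibitor FAIM 1.67-fold and the FAS-binding DAXX 1.16-fold, and GMDS, an enzyme of the fucose pathway, fell (log2 fold change -0.24). LGALS3 and FAIM kept their calls in every alternative. DAXX lost its call in all 6 fits with 1 library left out (adjusted p 0.0561 to 0.147 in limma's test). GMDS kept its call in only 2 of these 6 fits (adjusted p up to 0.102 in limma's test, without MDA-MB-231 replicate 3).

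NF-kB lies downstream of TNFRSF1A and RIPK1. The list of NF-kB targets, like the others, was chosen with earlier results of these data known. Of 9 tested NF-kB targets 5 rose and none passed as lower, with a median log2 fold change of 0.27. Of all tested genes 14.6% were higher and 16.2% lower. The count of targets depends on which genes were listed. Of the 5 that rose, the 3 smallest p-values were those of ICAM1, NFKBIE and NFKBIA (1.53-fold, 1.46-fold and 1.21-fold). The other 2, named after their values were seen, were RELB and NFKB1. The 4 that did not pass were also named after their values were seen. Their log2 fold changes were 0.25 (CXCL8), -0.01 (NFKB2), -0.16 (TNFAIP2) and -0.20 (SOD2). Whether the rises follow from RIPK1 was not tested. ICAM1 was at 7.46, 7.77 and 7.69 FPKM in MDA-MB-231 and at 11.7, 11.6 and 11.9 FPKM in Pep2-E3, an even rise (adjusted p = 0.000729 in limma's test). ICAM1, NFKBIE and NFKBIA kept their calls in every alternative, in which 4 to 6 of the 9 targets were called higher and 0 to 1 lower. In the ATF4 and DDIT3 axis, through which stress raises TNFRSF10B, 2 of 12 rose and 3 fell: ATF4 and PPP1R15A rose 1.54-fold and 1.52-fold, while ATF3, ASNS and DDIT4 fell. ATF4 and PPP1R15A kept their calls in every alternative. ATF3, ASNS and DDIT4 kept theirs in 4, 4 and 1 of the 6 fits with 1 library left out. Their adjusted p in limma's test reached 0.0615 and 0.0852 without MDA-MB-231 replicate 2 and 0.105 without replicate 1. DDIT3 (CHOP), a known activator of TNFRSF10B, was at 3.70 ± 0.260 FPKM in MDA-MB-231 and 3.45 ± 0.113 in Pep2-E3 (SD, n = 3) and did not pass. Among 9 interferon regulators, STAT2 fell (log2 fold change -0.18) and IRF1 rose 1.49-fold, but STAT2 was lost in 5 and IRF1 in all 6 of the fits with 1 library left out (adjusted p up to 0.145 in both, without MDA-MB-231 replicates 2 and 1).

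**Figure D5:**
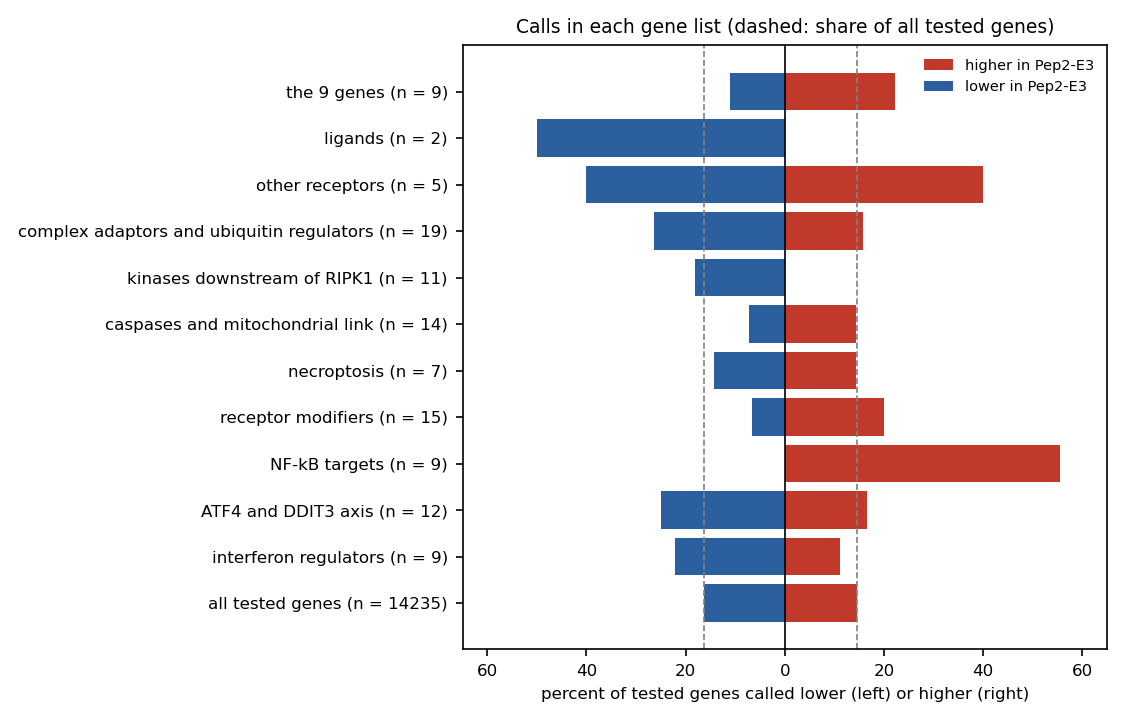
Percent of the tested genes of each list called lower (blue, to the left) or higher (red, to the right) in Pep2-E3, with the number tested; dashed lines mark 16.2% and 14.6%, the shares over all 14235 tested genes. The 9 genes (2 higher, 1 lower) lie near these lines, and the NF-kB targets have 5 of 9 higher and none lower.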

How the data were processed

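Per the labels' protocols, Trizol was used for RNA and the NEBNext Ultra kit for libraries, so strand is not marked. The tools were Bowtie2 version 2.2.3, HTSeq version 0.6.0 and HISAT2 version 2, per the submitters' processing notes, which also name mm8, a mouse build, although all 30099 identifiers are human and in GENCODE release 29, used here for coordinates. The authors deposited 1 table of FPKM per library. Multiplied by exon length and by the library's total over the listed genes, 100% of values gave whole fragments within 0.001, and these totals are the depth. Limma-trend (limma 3.58.1, R 4.3.3) was fitted on log2(FPKM + 1) for both groups, with no covariate, over 14235 genes with a mean of at least 0.5 FPKM, with Benjamini-Hochberg adjustment over all of them at 0.05. Fold changes on that scale understate low genes, folds are ratios of mean FPKM, and the fit was tested on simulated data. The 9 genes and the lists were chosen with earlier results of these data known. Genes were named by rule: the 9 genes, the 3 smallest p-values per list and direction, 20 genes by name, and the 3 nearest profiles to each of the 9 that passed. Alternatives were other pseudocounts, filters and scalings, limma-voom on the fragments, a correction for GC content and exon length (splines with 5 degrees of freedom), a replicate block and leaving out each library. List members without values are not analysed here, and some results of the lists are not reported here. Protein sequences were not used here.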

Additional observations from a re-analysis of the deposited data

How the results depend on the processing

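Of the 15 alternatives, none turned the direction of a called gene among the 56 genes that were followed through them. The markers, the nearest profiles and the genes named after their values were seen were not followed. RIPK1 stayed higher and TNFRSF10B lower in all of them. The number of genes called, 4383, was between 2471 and 4866 with 1 library left out, the lowest without MDA-MB-231 replicate 2. The count of the 9 genes called higher, 2, was 1 without a filter and 1 with the replicate block, in both because FADD was lost (adjusted p = 0.0785 and 0.0643), 3 with the GC and length correction (CASP8 added), and 1 to 2 with 1 library left out. The count called lower, 1, was 2 with limma-voom (CFLAR added), 2 with the GC and length correction (TNFRSF1A added) and 1 to 2 with 1 library left out (TNFRSF1A added without Pep2-E3 replicate 1). The causes were not tested. The replicate numbers did not pair the libraries (correlations of deviations -0.04, 0.04 and -0.06), and the block gave 2966 genes called. Of 838 combinations of a named gene and an alternative, 122 changed the call and 0 reversed it. FAS and FADD have the widest intervals of the 9 genes and the fewest fragments, and intervals cover these libraries only.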
